A study of Mus musculus with 12 samples.

Results

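Collagen genes are the subject here: 39 genes of the mouse forestomach whose products form the fibrils, sheets and filaments of connective tissue. They were taken from a whole-genome array as every gene with a name of the form Col, number, a, number in the array's annotation. Of 41 such genes, covered by 81 probes, 39 had a probe well above background in the forestomach channel on at least 3 of 4 arrays of the control or the 4-week group, out of 20735 genes tested. Where several probes passed, the one with the strongest signal stood for the gene. These comprised 11 fibrillar collagens, 8 basement membrane collagens and 20 others. Col10a1 and Col6a6 had no such probe, and Col6a3 is missing because its probes do not carry its symbol.

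The 12 samples were RNA of whole forestomach from adult wild-type C57BL/6J mice, 4 samples in each of 3 groups. Controls drank supersaccharin, a sweet solution, with 0% alcohol. A second group was given 20% alcohol in that solution for 4 weeks, and the last group 15% alcohol for 40 weeks, for which saccharin is not mentioned. The 40-week mice therefore differed from controls in dose, time and the named drink, and had no controls of their own, so these cannot be told apart. Samples 3 and 4 of the 40-week group also differed from all others in X- and Y-linked genes that mark sex, as given further on. RNA of each sample was labelled with Cy5 and read against one commercial mouse reference RNA labelled with Cy3. Each value below is a log2 ratio, forestomach over reference, and 0 means equal signal in both dyes.

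Collagens are built from 3 chains wound around each other, in which glycine recurs at regular short intervals. The fibrillar types I, II, III, V and XI carry tensile load, and types XXIV and XXVII are later-described relatives. Type IV forms the meshwork of basement membranes, to which types XV and XVIII are attached. Fibril-associated collagens such as XII and XIV decorate the surface of fibrils, type VI forms beaded filaments, type VII anchors the basement membrane of stratified epithelia to the connective tissue below, and type XVII is a membrane protein of hemidesmosomes that ties basal keratinocytes to that membrane. In the forestomach, a squamous epithelium rests on such a membrane above a lamina propria, a muscle coat and serosa.

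The repeat can be read in the array's own probes. Each probe is 60 bases long, and 3 of the 81 collagen probes hold the glycine codon GGN every 9 bases over their whole length, shown in capitals. The Col11a2 probe was the one used for that gene. The other 2 belong to genes for which a brighter probe was used, and their values differ from those of the probe used, as given further on. On build mm9 they align to chr17:34189287-34189453, chr2:27842243-27844666 and chr9:20590066-20590795, spans of 167, 2424 and 730 bases, so each crosses at least 1 splice junction.
Col11a2: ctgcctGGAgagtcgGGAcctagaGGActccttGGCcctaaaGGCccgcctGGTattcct
Col5a1: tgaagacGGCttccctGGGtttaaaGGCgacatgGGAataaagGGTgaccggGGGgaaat
Col5a3: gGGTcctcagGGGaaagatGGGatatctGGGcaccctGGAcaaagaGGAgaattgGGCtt

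Promoters of 4 members are shown, 2 chains of the major fibrils and 2 collagens of the epithelial anchoring complex that went opposite ways at 40 weeks as deposited. They are the 150 bases before the annotated start in RefSeq's table, build GRCm38.p6, in the direction of transcription. Capitals mark 3 short motifs on either strand: the CCAAT box, the TATA box written as TATAAA, and the GC box written as GGGCGG. Positions are chr6:4505468-4505617 and chr1:45311388-45311537 on the plus strand, chr9:108953436-108953585 on the plus strand and chr19:47692043-47692192 on the minus strand.
Col1a2: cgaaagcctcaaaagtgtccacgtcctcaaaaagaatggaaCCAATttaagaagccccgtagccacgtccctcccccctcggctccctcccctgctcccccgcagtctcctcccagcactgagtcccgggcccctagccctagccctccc
Col3a1: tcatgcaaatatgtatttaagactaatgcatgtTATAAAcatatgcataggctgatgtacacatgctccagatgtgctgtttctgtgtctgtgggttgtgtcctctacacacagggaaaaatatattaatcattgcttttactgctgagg
Col7a1: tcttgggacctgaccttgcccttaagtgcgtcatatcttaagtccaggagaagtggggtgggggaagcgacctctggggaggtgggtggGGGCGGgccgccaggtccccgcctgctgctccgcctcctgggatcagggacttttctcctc
Col17a1: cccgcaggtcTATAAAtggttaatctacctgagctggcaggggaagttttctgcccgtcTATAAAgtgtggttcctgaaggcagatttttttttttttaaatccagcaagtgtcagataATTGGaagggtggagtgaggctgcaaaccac

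Windows were found for 31 of the 39 genes, 34 windows in all. The CCAAT box, which reads ATTGG on the other strand, occurred in 8 of them (23.5%) and in 24.5% of all 32851 windows of that length in the table. The TATA box, with TTTATA as its other strand, occurred in 3 (8.82%) against 7.57%, in Col3a1, Col11a2 and Col17a1. The GC box, with CCGCCC as its other strand, occurred in 17 (50%) against 28.6%, Col7a1 among them. These are matches of letters only.

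Markers of the labelled tissue were present. All 8 squamous epithelium genes, Krt5, Krt14, Krt4 and Krt13 among them, were above background on all 8 arrays with scanner files, at a mean log2 ratio of 5.14 to 5.73 in controls. Median Cy5 signal above local background was 112 to 151 in controls and 42.4 to 112 after 4 weeks, and no spot was saturated. Each of these groups was hybridised on 1 slide, so slide and group cannot be told apart. Transcripts of other organs were high on 3 arrays: pancreas markers averaged 6.70 in control replicate 3 and 0.39 to 1.45 elsewhere, and glandular stomach markers averaged 5.46 in control replicate 4, 3.70 in 4-week replicate 2 and 0.31 to 2.76 elsewhere. Xist, transcribed from the inactive X chromosome, was read at 0.11 to 1.96 over 4 probes in 40-week samples 3 and 4 and at -10.06 to -0.82 in the other 10 samples. The Y-linked gene Eif2s3y read -5.67 and -6.28 in samples 3 and 4 and 2.61 to 3.17 in the other 10. Every kept probe of Ddx3y, Kdm5d and Uty, Y-linked too, was also lower there. By these genes samples 3 and 4 read as female and the other 10 as male, while the labels give no sex. For the 40-week group only the deposited value table was used. Its columns had a smaller standard deviation over probes, 1.02 to 1.08, than those of the other groups, 1.48 to 1.73, and how they were made could not be checked, so the 40-week change of each collagen is given also with all columns scaled to 1 spread.

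Relative to the reference, collagens spanned a wide range in control forestomach. Mean log2 ratios in the deposited table were above 3 for 7 genes: Col17a1 (6.57 ± 0.33, SD, n = 4), Col14a1 (6.33 ± 0.36), Col19a1 (5.82 ± 0.12), Col15a1 (5.39 ± 0.16), Col23a1 (4.43 ± 0.25), Col8a2 (4.28 ± 0.56) and, closest to that limit, Col13a1. A further 16 genes lay between 0 and 3 and 16 lay below 0. None of these 7 was fibrillar: with the probe used, 9 of the 11 fibrillar genes had a mean below 0, the exceptions being Col2a1 and Col11a2. The side of 0 depended on the probe for several. Further kept probes of Col5a1 (0.86), Col5a3 (0.31) and Col27a1 (0.56 and 1.92) lay above 0, and that of Col11a2 at -2.29. Those of Col1a1 lay at 0.15 and -1.60, while those of Col2a1 (0.31 and 1.44) and Col3a1 (-0.02) kept their side. The ratio compares each gene with its own level in the reference and gives no order of abundance between genes. Of the 7 genes above 3, the Cy3 signal in controls was dimmest for Col19a1 (21 to 36) and Col15a1 (63 to 91) and reached 314 for Col8a2. Rebuilt from the scanner files as for the 4-week comparison, the control means of Col19a1 and Col15a1 were 3.93 and 4.42. The size of such ratios thus depends on how background is treated. Of the 39, 34 were above background on all 8 arrays with scanner files. Col28a1, Col4a3, Col9a1 and Col9a3 passed through the control group alone, with 0, 1, 1 and 1 of the 4-week arrays above background, and Col24a1 passed with 3 arrays of each group.

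**Figure D1:**
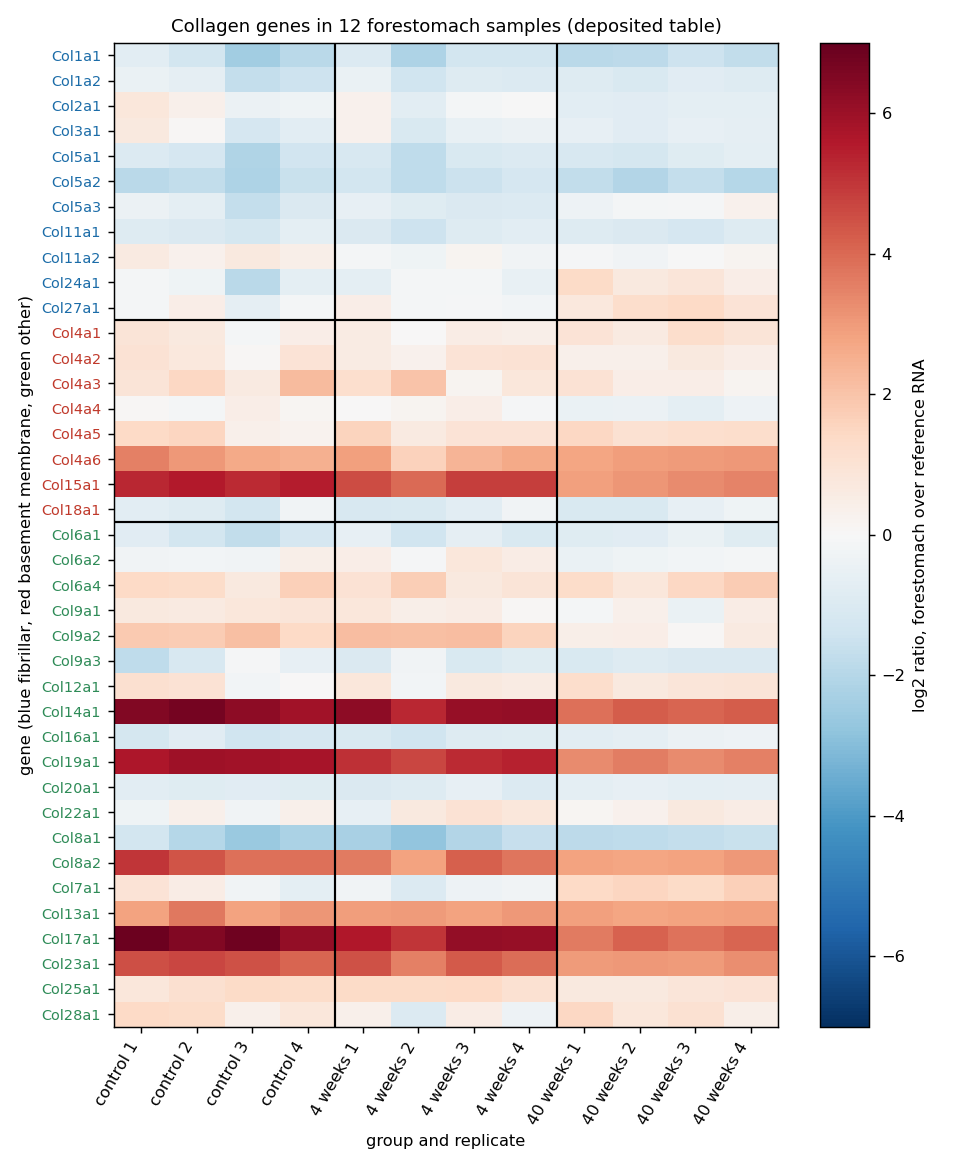
Log2 ratio over the reference of 39 collagen genes (rows, by class) in the 12 samples of the deposited table (columns, by group). Colours run from below the reference to above it, and the genes near the top of the range, such as Col17a1, Col14a1 and Col19a1, are paler in the 4 columns of the 40-week group.

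Within a group, the fibrillar genes varied together from array to array. Col1a1, a chain of type I collagen, read -0.78, -1.29, -2.47 and -1.94 on the control arrays and -0.90, -2.13, -1.25 and -1.22 on the 4-week arrays after the normalisation used here. Col1a2, its partner chain, read -0.50, -0.66, -1.68 and -1.50 and -0.38, -1.34, -0.81 and -0.84, and Col3a1, the chain of type III collagen, read 0.65, 0.06, -1.18 and -0.78 and 0.34, -1.01, -0.47 and -0.35. In all 3 genes the lowest control value came from replicate 3 and the lowest 4-week value from replicate 2, and the groups overlapped. Over the 11 fibrillar genes, control replicate 3 held the lowest control value in 10 (90.9%, against 24.9% of all genes), and 4-week replicate 2 held the lowest in 9 (81.8%, against 33.1%). Their mean log2 ratio was -0.32, -0.50, -1.20 and -0.81 on the control arrays and -0.39, -0.97, -0.61 and -0.56 on the 4-week arrays. Control replicate 3 is the array with pancreas transcripts, and 4-week replicate 2 is one with glandular stomach transcripts. Their part in these values was not tested. Fibroblast markers (Pdgfra, Dcn, Lum, Dpt, Thy1, Pi16, Mfap5 and Fbln1, all 8 above background on all 8 arrays) averaged 2.14, 2.23, 2.00 and 1.84 in controls and 2.40, 1.79, 2.05 and 2.12 after 4 weeks, lowest on control replicate 4 and 4-week replicate 2.

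**Figure D2:**
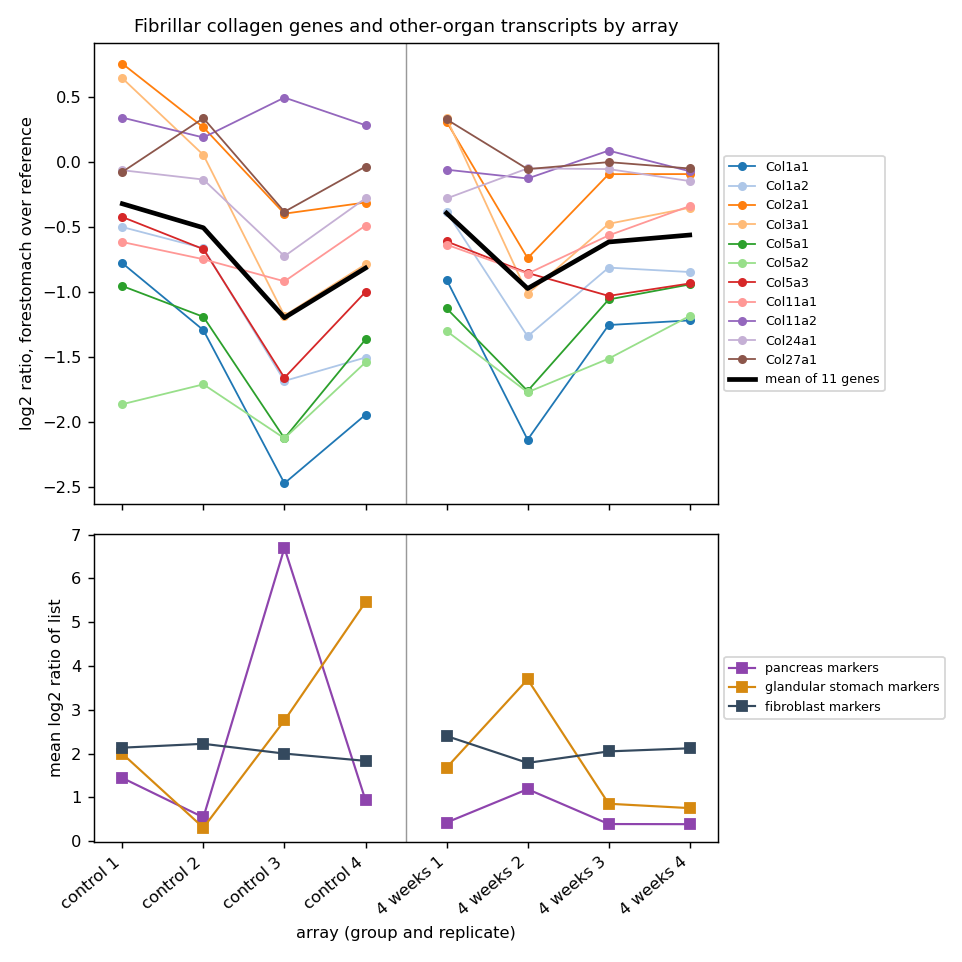
Log2 ratio over the reference of the 11 fibrillar collagens on the 8 arrays with scanner files, 1 line a gene and their mean in black, above the mean log2 ratio of pancreas, glandular stomach and fibroblast markers on the same arrays. Control replicate 3 and 4-week replicate 2 are the low points of 10 and 9 of the lines.

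In the 40-week samples, whose columns have a smaller spread over all probes, Col1a1 read -1.89, -1.85, -1.44 and -1.72, Col1a2 -0.89, -1.09, -0.82 and -0.92 and Col3a1 -0.58, -0.80, -0.56 and -0.66. The fibrillar means were -0.57, -0.66, -0.47 and -0.51 in the 4 samples.

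The comparison of 4 weeks of 20% alcohol with control asks whether a short period of drinking changes these genes. With limma on 8 arrays, 0 of 39 collagens passed an adjusted p of 0.05 (Benjamini-Hochberg over all genes), a threshold that 1.07% of all genes passed. Such a gene is termed called. Before adjustment 7 of 39 were below 0.05, as were 17.9% of all genes, and in 6 the groups did not overlap, which held for 11.8% of all genes. Of those 6, Col28a1 and Col9a1 had passed the filter through the control group alone, where they are high, so their lower 4-week values follow from how they entered. The median change over the 39 was -0.06, beside -0.02 over all genes. Fibrillar genes had a positive change in 8 of 11 (median 0.09), basement membrane genes a negative change in 7 of 8 (median -0.05) and the others a negative change in 14 of 20 (median -0.13). Of all genes 53.1% had a negative change. Among the 7, Col4a2, Col18a1 and Col4a4 lay at -0.01, -0.01 and -0.02, and Col4a3 had passed the filter through the control group alone. In the deposited table of the same arrays these counts were 7 of 11, 5 of 8 and 13 of 20. No member's change was larger than 0.81 in size.

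Among fibrillar genes, Col1a1 had a change of 0.24 (SE 0.38), Col1a2 of 0.24 (SE 0.31), Col3a1 of -0.06 (SE 0.42) and Col5a1 of 0.19 (SE 0.27), each within its own replicate spread. Col5a2, a chain of the type V collagen that starts fibrils, had a change of 0.37 (SE 0.17, adjusted p = 0.30). Its neighbour in the genome, Col3a1, did not share that sign. Col11a2, a chain of type XI collagen, read 0.34, 0.19, 0.50 and 0.29 in controls and -0.06, -0.12, 0.09 and -0.07 after 4 weeks. Every 4-week array lay below every control array (change -0.37, SE 0.11, adjusted p = 0.14). In the deposited table of the same arrays it passed the test (change -0.63, adjusted p = 0.029), as did Col15a1 (-0.83, adjusted p = 0.035) and Col19a1 (-0.72, adjusted p = 0.022). These were 3 of 39 members, where 5.97% of all genes were called.

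Of the basement membrane genes, Col15a1, whose product links basement membranes to fibrils around vessels and muscle, read 4.03, 4.77, 4.27 and 4.61 in controls and 3.79, 3.40, 3.93 and 3.87 after 4 weeks. The groups did not overlap (change -0.67, SE 0.19, adjusted p = 0.13). Col4a6, a type IV chain of epithelial and muscle basement membranes, had a change of -0.60 (SE 0.30, adjusted p = 0.33). The remaining 6 lay between -0.14 and 0.12. Col4a1 and Col4a2, the chains of the most widespread type IV collagen, had a change of -0.08 (SE 0.23) and -0.01 (SE 0.24), and Col18a1, the source of endostatin, of -0.01 (SE 0.25).

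Among the other collagens, Col19a1, known for its role in the muscle of the oesophagus, read 3.58, 4.18, 4.04 and 3.91 in controls and 3.39, 3.17, 3.56 and 3.07 after 4 weeks. Col17a1 read 5.99, 6.00, 6.25 and 5.45 and 5.16, 4.55, 5.33 and 5.44. Neither gene's groups overlapped. The change was -0.63 (SE 0.16, adjusted p = 0.10) for Col19a1 and -0.81 (SE 0.23, adjusted p = 0.13) for Col17a1, the largest of the 39 in size. Col7a1 read 0.92, 0.50, -0.28 and -0.66 in controls and -0.28, -0.96, -0.40 and -0.30 after 4 weeks, where the controls were spread over more than the change of -0.60 (SE 0.33, adjusted p = 0.38). Col8a2, a chain of the network-forming type VIII collagen, had a change of -0.73 (SE 0.31, adjusted p = 0.27). Col6a2, a chain of type VI collagen, had the largest positive change at 0.49 (SE 0.21, adjusted p = 0.27), though its further kept probe had -0.40. It read -0.27, -0.20, -0.25 and 0.36 in controls and 0.44, -0.09, 0.78 and 0.50 after 4 weeks, and its partner Col6a1 had a change of 0.34 (SE 0.23). Of the fibril-associated pair Col12a1 and Col14a1, the change was -0.07 (SE 0.32) and -0.27 (SE 0.24). Col28a1 was well above background on 4 control arrays and on 0 of the 4-week arrays, so no size is given for its change. Of all genes 1.07% were called. Squamous epithelium markers averaged 5.14 to 5.73 in controls and 3.65 to 4.58 after 4 weeks, with 3 of 8 called lower, and smooth muscle markers 4.75 to 5.09 and 3.35 to 4.21, with 3 of 8 called lower. The reference channel moved with both lists. Taken alone, Cy5 had a median change of 0.07 over the squamous genes and -0.21 over the smooth muscle genes, and Cy3 one of 1.48 and 0.72. Cy3 was higher after 4 weeks for 8 of 8 squamous and 7 of 8 smooth muscle genes, Cy5 lower for 4 and 7. Among the called genes, Krt4 had a Cy5 change of 0.75 and a Cy3 change of 2.01, and Cnn1 had a Cy5 change of -0.18 and a Cy3 change of 1.98. Their part in the collagen values was not tested.

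Both dyes entered these ratios. Taken alone, Cy5, the forestomach channel, called 0 of 39 collagens and 0.323% of all genes, while Cy3, the same reference RNA on both slides, called 5 of 39 (Col2a1, Col11a1, Col11a2, Col14a1 and Col15a1) and 8.69% of all genes. For Col15a1 the Cy5 change was -0.28 and the Cy3 change 0.40. For Col17a1 they were -0.45 and 0.27, and for Col19a1 -0.40 and 0.15. Of these Cy3 changes only that of Col15a1 was called, so part of the lower Col15a1 ratio lay in a brighter reference channel. For Col17a1 and Col19a1 the part of the reference channel is uncertain, and the Cy3 signal of Col19a1 was dim (21 to 36 in controls, 23 to 35 after 4 weeks). Col11a2 went lower in both dyes, by -0.46 in Cy5 and -0.37 in Cy3. Col2a1, the cartilage collagen, had the largest change in both, with 1.32 in Cy5 and 1.55 in Cy3, with a ratio change of -0.23 (SE 0.30). Col6a2 was the reverse case, with 0.50 in Cy5 and -0.04 in Cy3. Col14a1 had a positive change in Cy5 (0.16) beside a larger one in Cy3 (0.36), which left a negative ratio.

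**Figure D3:**
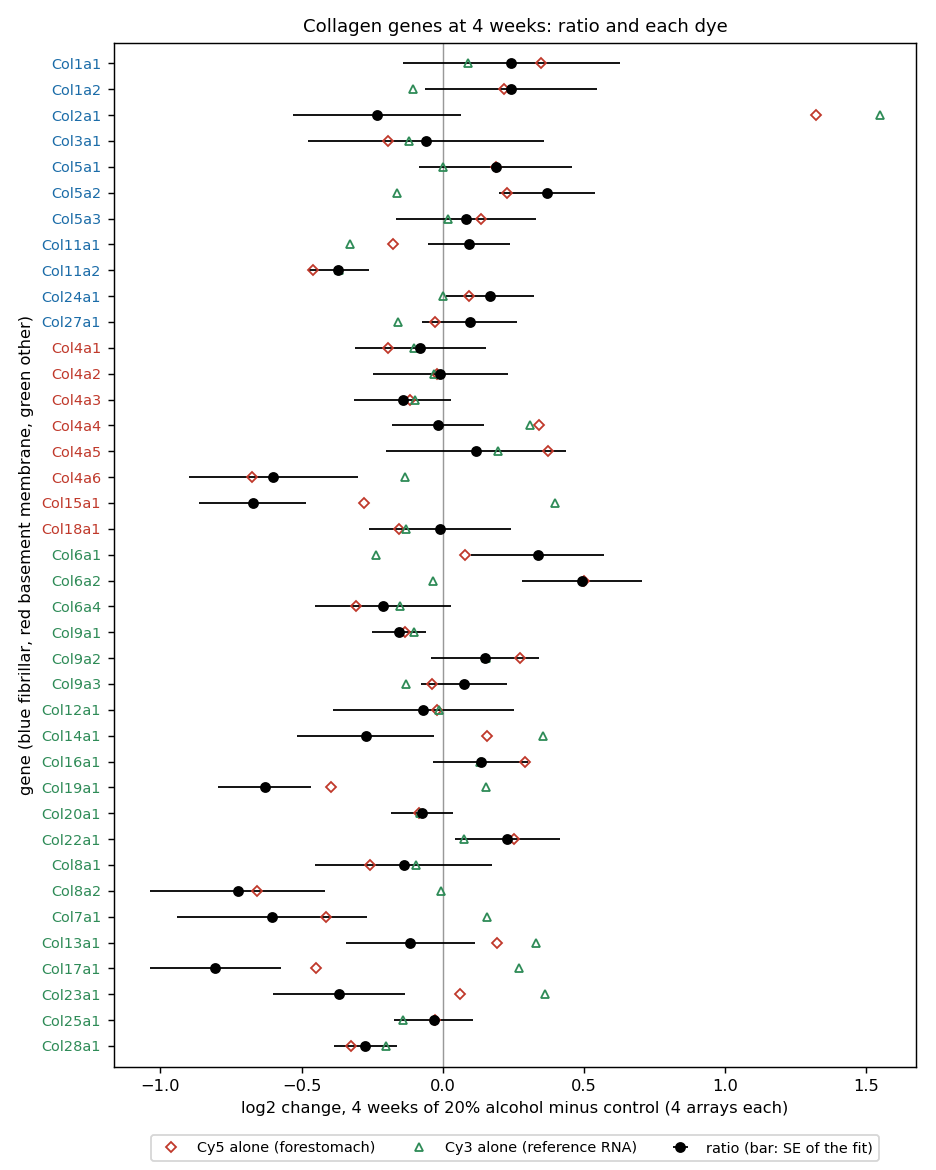
Change from control to 4 weeks on the log2 scale for each of the 39 genes, as the ratio (black, bars are the SE of the fit), in Cy5 alone (red diamonds) and in Cy3 alone (green triangles), 4 arrays a group. Col2a1 lies at 1.32 in Cy5 and 1.55 in Cy3, far from its ratio at -0.23.

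Leaving out control replicates 3 and 4 and 4-week replicate 2, the arrays with pancreas or glandular stomach RNA, 0 collagens were called, as were 0% of all genes, and 11 stood at an unadjusted p under 0.05, as did 22% of all genes. Col1a1 (-0.09) and Col1a2 (-0.10) then had the other sign, and Col3a1 (-0.51), Col12a1 (-0.43) and Col2a1 (-0.47) lay further below 0. Col7a1 had a change of -1.03 and Col6a2 of 0.80, each over 1.5 times its value with all arrays, with Col8a2 at -0.90 and Col17a1 at -0.69.

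After 40 weeks of 15% alcohol, 16 of 39 collagen genes differed from control in the deposited table, 5 higher and 11 lower (limma on 12 samples, Benjamini-Hochberg over all genes). The same test called 42.5% of all genes, 18.6% higher and 23.9% lower. In 17 genes the groups did not overlap, which held for 42.3% of all genes. The higher genes were Col24a1, Col7a1, Col27a1, Col5a3 and Col16a1, with log2 changes from 0.62 to 1.59. The lower genes were Col17a1, Col19a1, Col14a1, Col15a1, Col8a2, Col23a1, Col9a2, Col2a1, Col9a1, Col4a4 and Col11a2, from -0.55 to -2.66. By class, 5 of 11 fibrillar genes were called (3 higher, 2 lower), 2 of 8 basement membrane genes (both lower) and 9 of 20 others (2 higher, 7 lower). The median change was -0.04 over the 39 genes and -0.09 over all genes.

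The direction went with the control ratio. Of the 7 members with a control mean above 3, 6 were called lower (85.7%) and 0 higher, and of all 1497 such genes 86.2% were lower and 0% higher. Between 0 and 3, 5 of 16 members (31.2%) and 32.6% of all genes were called lower. Between -3 and 0, 4 of 16 members (25%) and 36.5% of all genes were called higher. The smaller spread of the 40-week columns moves with this, and its part in the changes was not tested.

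**Figure D4:**
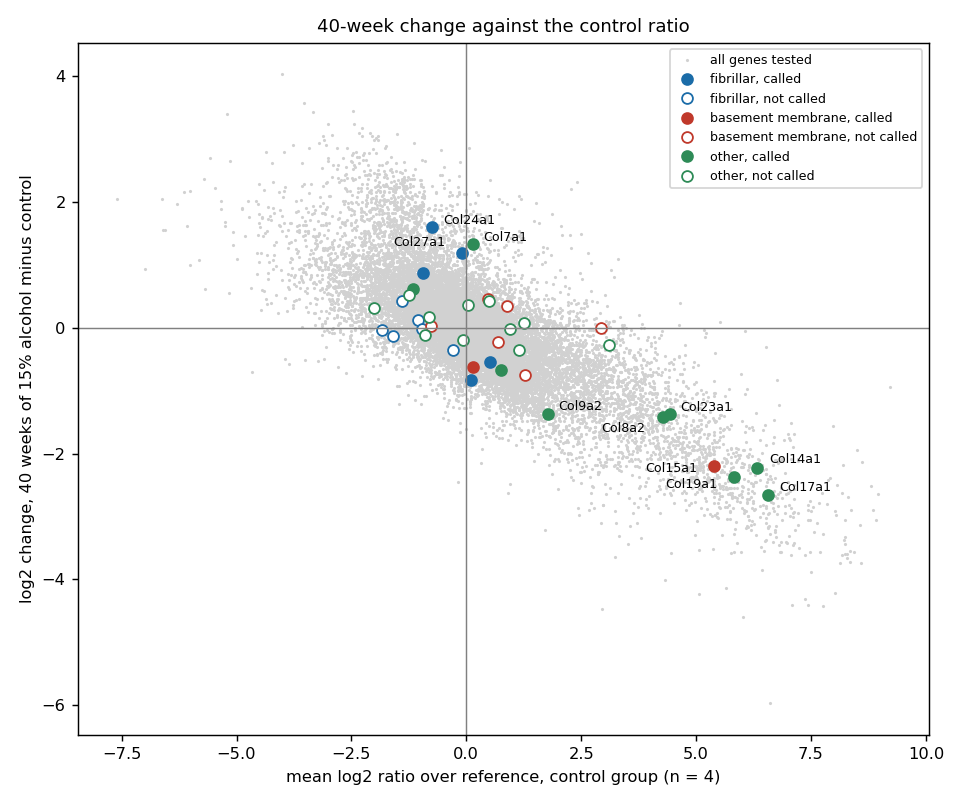
Log2 change from control to 40 weeks against the mean control ratio, for all genes tested (grey) and the 39 collagens (filled where called, coloured by class). Members with a high control ratio, from Col8a2 to Col17a1, lie at the lower right, inside the grey cloud.

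With all columns scaled to 1 spread, 15 collagens were called, 8 higher and 7 lower, in place of 5 and 11. All genes then gave 38.2%, with 19.6% higher and 18.7% lower. The settings shared 8 called genes, each with the same sign: Col5a3, Col24a1, Col27a1 and Col7a1 higher, and Col2a1, Col11a2, Col4a4 and Col9a2 lower. A further 8 were called only as deposited and 7 only at 1 spread. Of the 6 called genes with the highest control ratios, none kept its call, Col14a1 went to -0.06, and Col8a2 and Col23a1 changed sign. The value at 1 spread stands beside the changes below.

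**Figure D5:**
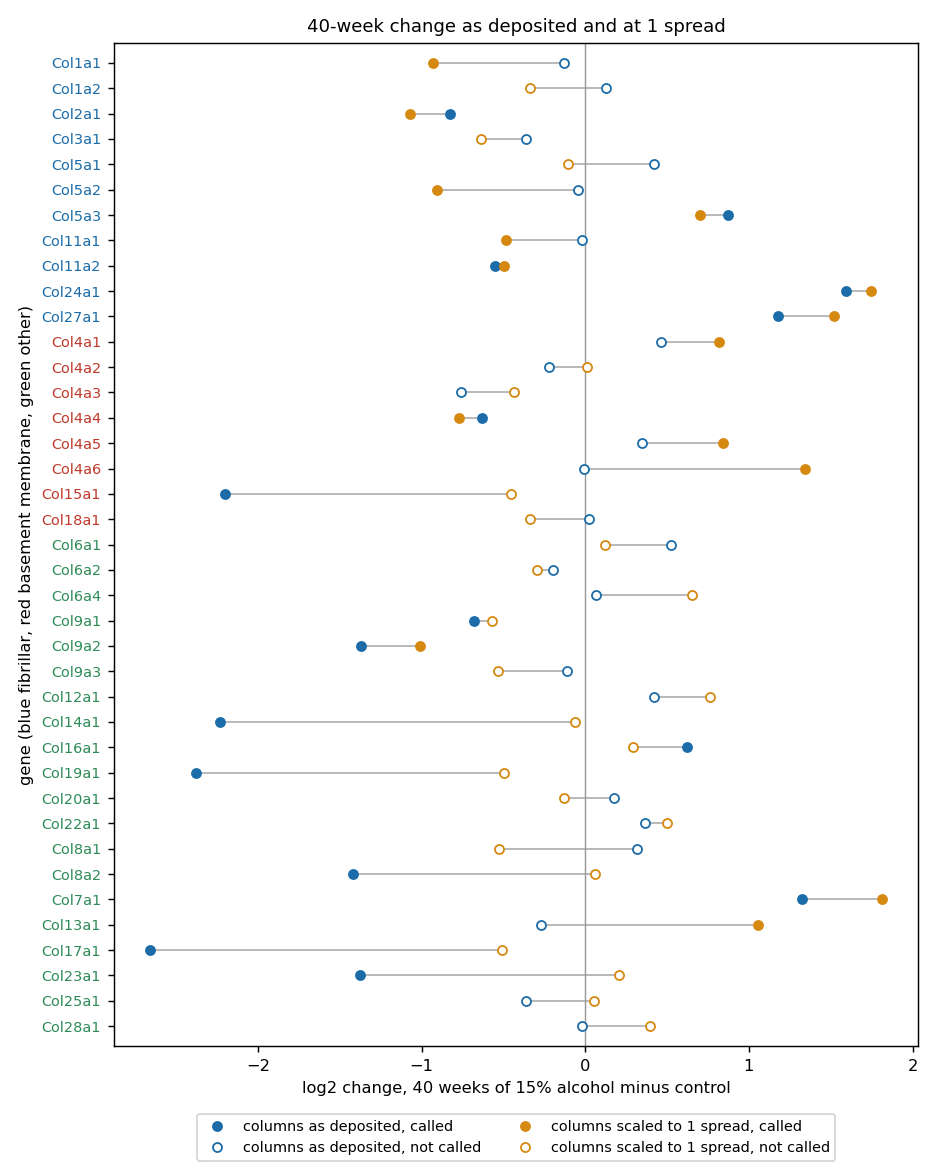
Log2 change from control to 40 weeks of the 39 genes with columns as deposited (blue) and scaled to 1 spread (orange), filled where called. Col7a1, Col24a1 and Col9a2 stay filled on 1 side of 0, whereas Col17a1 moves from -2.66 to -0.51 and is no longer called.

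The fibrillar genes divided. Col24a1 read -0.12, -0.28, -1.91 and -0.68 in the controls, -0.70, -0.13, -0.16 and -0.54 after 4 weeks and 1.37, 0.69, 0.85 and 0.48 after 40 weeks, so every 40-week sample lay above every other sample (change 1.59, SE 0.34, adjusted p = 0.0033, 1 spread 1.74). Col27a1 read -0.11, 0.45, -0.63 and -0.12 in the controls, 0.45, -0.16, -0.06 and -0.19 after 4 weeks and 0.71, 1.25, 1.39 and 0.97 after 40 weeks (change 1.18, SE 0.23, adjusted p = 0.0020, 1 spread 1.52). Without the 3 arrays with pancreas or glandular stomach RNA the change of Col24a1 was 1.05 and still called. Its Cy5 signal was near background, 15 to 49 in controls and 12 to 40 after 4 weeks. Control replicate 3 read -0.72 from the scanner files in place of -1.91, so the size of the Col24a1 change is uncertain. Col24a1 and Col27a1 encode fibrillar chains of the later-described branch. Col5a3 read -0.43, -0.66, -1.70 and -1.02 in the controls, -0.59, -0.86, -1.02 and -0.94 after 4 weeks and -0.35, -0.15, -0.10 and 0.28 after 40 weeks (change 0.87, SE 0.24, adjusted p = 0.013, 1 spread 0.70). That gene, a type V chain, was no longer called when those 3 arrays were left out (0.47, adjusted p = 0.092). On the lower side, Col2a1 read 0.82, 0.33, -0.42 and -0.32 in the controls, 0.32, -0.74, -0.11 and -0.04 after 4 weeks and -0.73, -0.78, -0.70 and -0.69 after 40 weeks (change -0.83, SE 0.27, adjusted p = 0.030, 1 spread -1.07). Col11a2 read 0.64, 0.29, 0.68 and 0.44 in the controls, -0.13, -0.29, 0.18 and -0.25 after 4 weeks and -0.10, -0.23, -0.04 and 0.22 after 40 weeks (change -0.55, SE 0.15, adjusted p = 0.011, 1 spread -0.49), so that the 40-week samples overlapped the 4-week ones and not the controls. The call of Col2a1 was lost when control replicate 1 or 2 or any 40-week replicate was left out (adjusted p = 0.056 to 0.073), while without the 3 arrays just named its change was -1.30 and called. That of Col11a2 was lost without these arrays too (-0.50, adjusted p = 0.057).

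The major fibril chains were not called as deposited. Col1a1 had a change of -0.13 (SE 0.34, adjusted p = 0.78), Col1a2 of 0.13 (SE 0.27, adjusted p = 0.73) and Col3a1 of -0.36 (SE 0.37, adjusted p = 0.45), and their groups overlapped. Col5a1 read -0.95, -1.17, -2.12 and -1.34 in the controls, -1.11, -1.75, -1.05 and -0.94 after 4 weeks and -1.14, -1.21, -0.87 and -0.67 after 40 weeks, a change of 0.42 (SE 0.26, 1 spread -0.10). Col5a2 read -1.91, -1.72, -2.14 and -1.54 in the controls, -1.29, -1.78, -1.50 and -1.18 after 4 weeks and -1.75, -2.05, -1.66 and -2.01 after 40 weeks, a change of -0.04 (SE 0.17). In both of these the groups overlapped, and Col11a1 had a change of -0.02 (SE 0.17). The calls depended on which values entered. At 1 spread Col1a1 was called lower (-0.93, adjusted p = 0.020), as were Col5a2 (-0.90, adjusted p = 8.3e-04) and Col11a1 (-0.49, adjusted p = 0.036), while Col1a2 (-0.34) and Col3a1 (-0.64) were not. With those 3 arrays left out, Col1a1 (-0.72, adjusted p = 0.019) and Col3a1 (-1.03, adjusted p = 0.011) were called lower. That setting called 13 members, 3 higher and 10 lower, and 36.2% of all genes, 15.8% higher and 20.4% lower.

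Among basement membrane genes, Col15a1 read 5.30, 5.57, 5.23 and 5.48 in the controls, 4.56, 3.99, 4.85 and 4.86 after 4 weeks and 2.85, 3.12, 3.32 and 3.48 after 40 weeks (change -2.20, SE 0.20, adjusted p = 8.0e-06, 1 spread -0.45 and not called). With the probe used, its values fell in 3 separate ranges, with the 4-week group between the others. The gene's further kept probe did not show that order. Its change was 0.33 from control to 4 weeks and -1.17 from control to 40 weeks. Col4a4 read 0.06, -0.13, 0.49 and 0.15 in the controls, 0.03, 0.19, 0.44 and -0.08 after 4 weeks and -0.46, -0.43, -0.70 and -0.37 after 40 weeks (change -0.63, SE 0.16, adjusted p = 0.0074, 1 spread -0.77), and its 40-week samples lay below all others, though without the 3 arrays with RNA of other organs it was not called (-0.45, adjusted p = 0.069). The type IV genes lie in head-to-head pairs. Col4a1 read 0.92, 0.66, -0.16 and 0.45 in the controls, 0.56, 0.04, 0.54 and 0.43 after 4 weeks and 0.95, 0.61, 1.23 and 0.91 after 40 weeks, a change of 0.46 (SE 0.22, adjusted p = 0.12). Its pair Col4a2 read 1.01, 0.75, 0.06 and 0.96, then 0.57, 0.28, 0.97 and 0.99, then 0.37, 0.38, 0.69 and 0.45, a change of -0.22 (SE 0.22, adjusted p = 0.44, 1 spread 0.01). Col4a3, the pair of Col4a4, had a change of -0.76 (SE 0.40, adjusted p = 0.15, 1 spread -0.44). The X-linked pair Col4a5 and Col4a6 had a change of 0.34 (SE 0.29) and 0.00 (SE 0.27). In no pair were both chains called as deposited. In 40-week samples 3 and 4, the ones with Xist, Col4a6 read 2.99 and 3.04, beside 2.78 and 2.93 in samples 1 and 2. At 1 spread Col4a1 (0.82), Col4a5 (0.84) and Col4a6 (1.34) were called higher. Col18a1 read -0.73, -0.90, -1.27 and -0.22 in the controls, -1.11, -1.04, -0.74 and -0.26 after 4 weeks and -1.07, -1.06, -0.60 and -0.30 after 40 weeks, a change of 0.03 (SE 0.26, 1 spread -0.34).

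Of the collagens that join epithelium to connective tissue, Col7a1 and Col17a1 went opposite ways as deposited. Col7a1 read 0.94, 0.54, -0.27 and -0.66 in the controls, -0.25, -0.98, -0.36 and -0.27 after 4 weeks and 1.38, 1.49, 1.34 and 1.65 after 40 weeks. Its probe lies at chr9:108886855-108886914 on mm9. All 40-week samples lay above all others (change 1.33, SE 0.31, adjusted p = 0.0047, 1 spread 1.81). It was called higher in all 23 alternative settings tried, some of which could not move its change. Without the 3 arrays with RNA of other organs that change was 0.72 (adjusted p = 0.0063). Col17a1 read 6.86, 6.50, 6.79 and 6.13 in the controls, 5.59, 5.02, 6.15 and 6.11 after 4 weeks and 3.65, 4.15, 3.81 and 4.05 after 40 weeks. Its probe lies at chr19:47720894-47720953. All 40-week samples lay below all others (change -2.66, SE 0.25, adjusted p = 1.0e-05). At 1 spread the change of Col17a1 was -0.51 (adjusted p = 0.16) and was not called. Squamous epithelium markers had a mean ratio of 5.32 to 5.87 in controls and 3.09 to 3.44 at 40 weeks in the same table, with 8 of 8 called lower as deposited and 5 lower and 2 higher at 1 spread. Of all genes with a control mean above 3, 86.2% were called lower as deposited. The markers' part in the Col17a1 value was not tested.

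Fibril-associated collagens supplied 5 of the lower or higher calls. Col19a1 read 5.68, 5.96, 5.88 and 5.75 in the controls, 5.10, 4.66, 5.20 and 5.41 after 4 weeks and 3.34, 3.61, 3.29 and 3.53 after 40 weeks (change -2.38, SE 0.16, adjusted p = 1.5e-06, 1 spread -0.49 and not called). Col14a1 read 6.51, 6.70, 6.24 and 5.86 in the controls, 6.26, 5.29, 6.12 and 6.17 after 4 weeks and 3.84, 4.26, 4.08 and 4.21 after 40 weeks (change -2.23, SE 0.23, adjusted p = 2.1e-05, 1 spread -0.06 and not called). For both, the 40-week samples lay below all others. Col9a2 read 1.84, 1.79, 2.08 and 1.39 in the controls, 2.14, 2.11, 2.14 and 1.55 after 4 weeks and 0.42, 0.49, 0.11 and 0.61 after 40 weeks (change -1.37, SE 0.19, adjusted p = 1.5e-04, 1 spread -1.01). Col9a2, a chain of the type IX collagen best known from cartilage, stood lower in all 23 alternative settings, some of which could not move its change. Col9a1 read 0.69, 0.65, 0.82 and 0.86 in the controls, 0.78, 0.40, 0.50 and 0.09 after 4 weeks and -0.15, 0.37, -0.47 and 0.53 after 40 weeks (change -0.68, SE 0.21, adjusted p = 0.024, 1 spread -0.57 and not called), whereas Col9a3 had a change of -0.11 (SE 0.31, 1 spread -0.53). The gene had passed the filter through the control group alone, so its lower call is no support for a change. A single 4-week array measured Col9a1 above background, and its call was lost when control replicate 3 or 4 or 40-week replicate 1 or 3 was left out (adjusted p = 0.051 to 0.070). Col16a1 read -1.21, -0.81, -1.41 and -1.19 in the controls, -1.07, -1.39, -0.88 and -0.86 after 4 weeks and -0.72, -0.65, -0.39 and -0.37 after 40 weeks (change 0.62, SE 0.17, adjusted p = 0.010, 1 spread 0.29 and not called). Without 40-week samples 3 and 4, 11 members were called, 3 higher and 8 lower, beside 24.4% of all genes (9.79% higher, 14.6% lower), and Col16a1, Col9a1, Col2a1, Col4a4 and Col5a3 were not. Without the 3 arrays with RNA of other organs, Col16a1 (0.48, adjusted p = 0.052) and Col9a1 (-0.60, adjusted p = 0.13) were not called either. Col12a1 read 1.11, 1.03, -0.20 and 0.04 in the controls, 0.77, -0.17, 0.66 and 0.56 after 4 weeks and 1.25, 0.67, 0.87 and 0.88 after 40 weeks, a change of 0.42 (SE 0.31, adjusted p = 0.29, 1 spread 0.76).

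Among the remaining members, Col23a1, a membrane collagen, was called lower. Col23a1 read 4.49, 4.67, 4.48 and 4.08 in the controls, 4.43, 3.52, 4.27 and 3.90 after 4 weeks and 2.96, 3.03, 2.96 and 3.26 after 40 weeks (change -1.37, SE 0.20, adjusted p = 2.1e-04), but at 1 spread its change was 0.20. Col8a2 read 5.02, 4.40, 3.85 and 3.84 in the controls, 3.65, 2.84, 4.20 and 3.77 after 4 weeks and 2.84, 2.74, 2.82 and 3.02 after 40 weeks (change -1.42, SE 0.30, adjusted p = 0.0028), and at 1 spread 0.06. Each had its 40-week samples below all controls as deposited. The type VI chains were not called. Col6a1 read -0.81, -1.30, -1.70 and -1.19 in the controls, -0.57, -1.40, -0.65 and -1.07 after 4 weeks and -0.82, -0.79, -0.48 and -0.83 after 40 weeks, a change of 0.52 (SE 0.22, adjusted p = 0.070, 1 spread 0.12). Col6a2 read -0.27, -0.18, -0.23 and 0.39 in the controls, 0.48, -0.07, 0.82 and 0.54 after 4 weeks and -0.45, -0.31, -0.17 and -0.13 after 40 weeks, a change of -0.20 (SE 0.20, adjusted p = 0.45, 1 spread -0.29). For both, the 40-week and control samples overlapped. These 2 genes are neighbours on chromosome 10. The other 6 members with no call, Col6a4, Col8a1, Col13a1, Col20a1, Col22a1 and Col28a1, had changes between -0.27 and 0.36. At 1 spread they lay between -0.53 and 1.06. Among them Col20a1 (0.18, adjusted p = 0.24) did not overlap its controls. Col25a1 had -0.36 (SE 0.14, adjusted p = 0.063, 1 spread 0.05). Col13a1 was called higher at 1 spread (1.06, adjusted p = 0.0027).

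Set against 4 weeks of 20% alcohol, the 40-week group differed in 15 of 39 collagens, 6 higher and 9 lower, beside 41.5% of all genes (18.3% higher, 23.2% lower). At 1 spread 16 were called, 10 higher and 6 lower, beside 40.8% of all genes (21.9% higher, 18.9% lower). This comparison shares its 40-week samples with the one above, so the calls are not separate evidence. Col7a1 had the largest difference of the 39, 1.93 (SE 0.31, adjusted p = 5.7e-04, 1 spread 2.34). It was followed on the higher side by Col24a1 (1.23, 1 spread 1.46), Col27a1 (1.07, 1 spread 1.44), Col5a3 (0.77, 1 spread 0.62) and Col16a1 (0.52, 1 spread 0.20 and not called). Col28a1 was also called higher in both settings and counts among the 6 and the 10, but its 4-week level was not above background on any array. The gene had passed the filter through the control group alone. Its higher call is therefore no support for a difference, and the size is not given.

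On the lower side, Col9a2 (-1.58, SE 0.19, adjusted p = 9.7e-05, 1 spread -1.18), Col6a2 (-0.71, SE 0.20, adjusted p = 0.014, 1 spread -0.73) and Col4a4 (-0.63, SE 0.16, adjusted p = 0.0075, 1 spread -0.78) were called in both settings. Col6a2 was thus called lower than at 4 weeks and was not called against control. The other 6 lost their calls at 1 spread: Col14a1 (-1.86, to 0.33), Col17a1 (-1.81, to 0.29), Col19a1 (-1.66, to 0.19), Col15a1 (-1.37, to 0.33), Col23a1 (-0.98, to 0.60) and Col25a1 (-0.52, to -0.08). Col25a1 read 0.80, 1.12, 1.37 and 1.29 in the controls, 1.36, 1.35, 1.42 and 1.08 after 4 weeks and 0.67, 0.66, 0.83 and 0.97 after 40 weeks. Col28a1 read 1.38, 1.28, 0.34 and 0.81 in the controls, 0.33, -0.97, 0.52 and -0.38 after 4 weeks and 1.47, 0.77, 1.08 and 0.42 after 40 weeks, of which the 4-week values are no measured levels. Leaving out 1 library ended the call of Col28a1 (4-week replicate 2 or 4, 40-week replicate 1 or 3, adjusted p = 0.067 to 0.087), of Col16a1 (4-week replicate 1 or 2, 40-week replicate 3 or 4, adjusted p = 0.051 to 0.072) and of Col5a3 (4-week replicate 3 or 4, 40-week replicate 4, adjusted p = 0.051 to 0.072).

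A second look was possible where a gene had further kept probes, 27 probes of 21 genes. Their change had the sign of the probe used in 12 of 27 cases at 4 weeks, 18 of 27 at 40 weeks against control and 16 of 27 at 40 weeks against 4 weeks. At 4 weeks the further probes of Col6a2 (-0.40), Col11a2 (0.25), Col15a1 (0.33) and Col4a6 (0.08 and 0.66) had the opposite sign. Those of Col17a1 (-0.61) and Col19a1 (-0.40 and -0.44) had the same sign. Col17a1 (-1.93), Col15a1 (-1.17), Col19a1 (-0.36 and -1.30) and Col23a1 (-0.85 and -0.84) were lower at 40 weeks with their further probes too. Among fibrillar genes several further probes had the other sign. Of Col1a1's further probes, 1 gave -1.17 and 1 gave 0.63, and those of Col11a2 (1.58), 1 of Col2a1 (0.33), Col5a3 (-0.76) and Col5a1 (-0.93) had the opposite sign to the probe used. The Col5a1 and Col5a3 probes printed above, within the glycine repeat, are these. Those of Col27a1 gave -0.04 and 0.15, that of Col16a1 -0.47 and that of Col4a4 -0.02. With the mean of all kept probes in place of the brightest, 14 members and 42.1% of all genes were called, and Col27a1 (0.43), Col5a3 (0.06), Col16a1 (0.08) and Col4a4 (-0.33) were not, with adjusted p from 0.16 to 0.85. Col7a1, Col24a1, Col9a2, Col14a1, Col8a2 and Col9a1 had a single kept probe and no such check. The files place probes in the genome without naming the exon or untranslated region they lie in.

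Genes that fold, trim, bind, degrade or sense collagen were examined as lists. At 4 weeks, none of the 95 measured genes was called in any of the 7 lists, where 1.07% of all genes were called. The lists' median changes ran from -0.37 (receptors) to 0.20 (fibril-binding proteins) beside -0.02 over all genes. The lowest unadjusted p-values came from Sparc, a collagen-binding matricellular protein (0.86, SE 0.18, adjusted p = 0.062), Tgfb1, a growth factor that raises collagen synthesis (0.46, adjusted p = 0.10), and Lox, the enzyme that crosslinks collagen (0.49, adjusted p = 0.12). Ccn2, a target of that growth factor, had -0.75 (adjusted p = 0.14). From the other lists the leading pairs were Crtap (0.38) beside Lox, Prelp (-0.52) beside Sparc, Fap (0.52) and Mmp2 (0.39), Itga1 (-0.66) and Ddr1 (-0.37), Adamts14 (-0.30) and Pcolce2 (0.46), and Lama1 (0.23) and Lamb3 (0.37). Serpinh1, the collagen chaperone, had a change of -0.43, P4ha1, a prolyl hydroxylase subunit, of -0.35, Plod2, a lysyl hydroxylase, of -0.35, Bmp1, which removes the C-terminal propeptide, of 0.19, Timp1, an inhibitor of collagenases, of -0.09, and the small proteoglycans Dcn and Lum of 0.21 and -0.32, none of them called.

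At 40 weeks, 42.5% of all genes were called as deposited, 18.6% higher and 23.9% lower. At 1 spread it was 38.2%, 19.6% higher and 18.7% lower. These shares stand beside the counts of every list that follows. Of 25 folding and crosslinking genes 8 were higher and 1 lower as deposited (median 0.07, beside -0.09 over all genes), and 3 higher and 6 lower at 1 spread (median -0.18), so the list's direction followed the scaling. Colgalt1 (1.31, adjusted p = 4.9e-06), which adds galactose to collagen, and Mia3 (0.57, adjusted p = 0.010), needed to export procollagen, were higher in both settings (1 spread 1.17 and 0.60). Lox (1.05, adjusted p = 5.6e-05) reversed to -0.59 (adjusted p = 0.0098). Fkbp10 (0.78, adjusted p = 0.0016) and Plod2 (0.81, adjusted p = 0.042) were higher and P3h2 (-1.34, adjusted p = 0.0036) lower as deposited only. Serpinh1 (-0.45) and P4ha1 (0.45) were not called as deposited, and Serpinh1 was lower at 1 spread (-0.65, adjusted p = 0.033).

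Of 7 procollagen processing genes, 2 were higher and 1 lower in both settings: Bmp1 (1.43, adjusted p = 1.8e-04), Adamts3 (0.65, adjusted p = 0.0027) and Adamts14 (-0.51, adjusted p = 0.0094), at 1 spread 1.15, 0.87 and -0.51. The list's median was -0.32 as deposited and -0.28 at 1 spread. Of 10 breakdown genes 3 were higher and 2 lower, and 1 and 2 at 1 spread (median 0.04 and -0.19). Fap, a fibroblast protease, was higher in both settings (1.11 and 1.21) and Mmp2, a gelatinase, lower in both (-0.48 and -0.68). Timp1 (1.45, adjusted p = 0.0099) and Mmp9 (0.74, adjusted p = 0.012) were higher and Ctsk (-0.54, adjusted p = 0.036) lower as deposited only. Of 15 fibril-binding genes 4 were higher and 4 lower, and 6 and 2 at 1 spread (median -0.15 and 0.43). Sparc (0.79 and 0.44) and Comp (0.67 and 1.12) were higher in both. Lum (-0.98, adjusted p = 0.0083) reversed to 1.34 (adjusted p = 0.013), Dpt (-1.32, adjusted p = 1.2e-04), Prelp (-0.88, adjusted p = 0.0031) and Aspn (-0.94, adjusted p = 0.0094) were lower as deposited only, as Thbs2 (0.95, adjusted p = 0.0021) and Fn1 (0.90, adjusted p = 0.0045) were higher, and Dcn (-0.09) was not called, though at 1 spread it was higher (0.71, adjusted p = 0.016).

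Of 7 collagen receptors 0 were higher and 3 lower: Gp6 (-1.41, adjusted p = 4.2e-04), Lair1 (-0.82, adjusted p = 0.022) and Itga1 (-0.90, adjusted p = 0.0038, 1 spread 0.58). The median was -0.38. At 1 spread 3 were higher and 2 lower (median 0.50), with Gp6 (-1.50) and Lair1 (-1.16) still lower. Of 17 TGF-beta genes 6 were higher and 3 lower, and 3 and 3 at 1 spread (median 0.16 and 0.27). Tgfb1 (0.89 and 0.38) and Ltbp3 (1.18 and 0.68) were higher, and Tgfb2 (-0.74 and -1.04) and Tgfbr3 (-0.52 and -0.51) lower, in both settings. Ltbp2 (1.55, adjusted p = 4.6e-05) and Ccn2 (0.75, adjusted p = 0.019) were higher and Tgfbi (-1.53, adjusted p = 6.4e-05) lower as deposited only. Of 14 laminins and other basement membrane partners 5 were higher and 2 lower in each setting (median 0.09 and 0.30). Lama5 (1.25 and 1.31), Lamc1 (0.83 and 0.74) and Agrn (0.74 and 0.84) were higher and Lama3, a laminin chain of hemidesmosomes, lower (-1.65 and -0.57) in both, Lamb1 (0.81, adjusted p = 0.0017) was higher as deposited only, and Lama4 (-1.03 to 1.10) and, chosen after its values were seen, Nid2 (0.61 to -0.64) reversed.

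Cell type markers moved at 40 weeks as well. Over all genes, 18.6% were called higher and 23.9% lower as deposited, and 19.6% and 18.7% at 1 spread. Of all genes with a control mean above 3, where many of these markers lie, 86.2% were called lower as deposited. In the deposited table fibroblast markers averaged 1.98 to 2.35 in controls and 1.49 to 1.79 at 40 weeks, with 3 of 8 called lower and 0 higher, and 1 lower and 3 higher at 1 spread. Smooth muscle markers averaged 4.84 to 5.14 and 2.91 to 3.20, with 8 of 8 lower, and 3 lower and 1 higher at 1 spread. Endothelial markers averaged 4.16 to 4.45 and 2.87 to 3.18, with 5 of 6 lower, and 1 lower and 3 higher at 1 spread. Cartilage markers were measured for 3 of 6, averaging 0.71 to 1.11 and 0.49 to 0.77, with 2 lower and 1 higher, and 1 of each at 1 spread. Macrophage markers averaged 2.84 to 3.13 and 1.26 to 1.69, with 7 of 8 lower and 1 higher, and 4 lower and 0 higher at 1 spread. Adipocyte markers ranged over 3.06 to 5.49 and 2.21 to 3.30, with 2 lower and 1 higher, and 1 of each at 1 spread. Markers of Schwann cells and glia (5 of 6 measured) averaged 2.00 to 2.61 and 1.90 to 2.44, with 1 lower, and 0 lower and 3 higher at 1 spread, and those of skeletal muscle (7 of 8) 1.41 to 1.84 and 0.91 to 1.49, with 3 lower and 1 higher, and 1 lower and 0 higher at 1 spread. In whole tissue, fewer cells of a type and less RNA per cell cannot be told apart, and the part of these shifts in the collagen values was not tested.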

How the data were processed

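RNA of 12 samples of whole forestomach was hybridised in Cy5 against a common reference RNA in Cy3 on 2-colour 60-mer arrays. The 8 scanner files of the control and 4-week groups hold spot and local background intensities, made by Agilent Feature Extraction 10.7.3.1 per the file headers, while version 9.1 is named in the submitters' processing notes; flags for spots above background come from the same software. A value table deposited by the authors holds log2 ratios of all 12 samples, with scale and centring unstated. Its 8 columns with scanner files had slope 1.00 and r = 1.000 against ratios rebuilt with plain background subtraction and loess, so direction and base are known for them; the 40-week columns had no such check, and their medians were 0.042 to 0.047.

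For 4 weeks against control, intensities were corrected with normexp (offset 50), loess normalised within each array without weight for control and outlier spots, averaged per probe and tested with lmFit and eBayes (limma 3.58.1, R 4.3.3). The table, in 1 fit of 3 groups, gave both 40-week comparisons. Adjusted p-values are Benjamini-Hochberg over 20735 genes, with 0.05 as threshold; SE is that of the fit. The script was tested on simulated data. Nothing in the labels ties replicates to separate mice, so p-values may rest on technical spread alone.

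All collagens are accounted for; values of every sample are printed for those called in a comparison and for a named set of major collagens. From other lists the called genes were named, up to 4 per direction by p, or the 2 with lowest p, and a set of regulators. The members and lists were chosen with earlier results of these data known. Alternatives covered background correction, normalisation, scaling, probe choice and filter, single channels, array weights, a replicate block and left-out samples. Scanner files of the 40-week group were not used here.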

Additional observations from a re-analysis of the deposited data

Results flagged for a closer look

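Of 117 groups of 4 values, 5 held a value far from the other 3, where chance gives about 1 in 20 groups. Col27a1 read 0.331 on 4-week replicate 1 and -0.052 to 0.002 on the other 4-week arrays. Col7a1, the anchoring fibril collagen, read -0.962 on 4-week replicate 2 and -0.395 to -0.281 on the others of its group. Col6a2 read 0.361 on control replicate 4 and -0.266 to -0.197 on the other controls. Col9a1 read 0.366 on control replicate 3 and 0.229 to 0.238 on the other controls. Col6a1 read -0.476 in 40-week sample 3 and -0.825 to -0.788 in the other 40-week samples. All are log2 ratios over the reference, from the deposited table for Col6a1 and from the scanner files for the others.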

How the results depend on the processing

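At 4 weeks, no collagen was called as reported, and 2 were without background correction, 1 with the scanner software's processed signals and 3 in the deposited table. Leaving out 1 array gave 0 each time. In Cy3 alone 5 were called, which are changes of the reference signal and not of the forestomach channel. There Col14a1 (0.36) and Col15a1 (0.40) were higher, which lowers a ratio and so goes with their negative ratio changes. Over all genes these settings called 0 to 1802, against 222 as reported. At 40 weeks against control, 16 were called as reported, 14 to 18 with 1 sample left out and 11 to 19 over all settings, which called 24.4% to 48.8% of all genes. Col8a2 and Col23a1 reversed with columns scaled to 1 spread (0.0615 and 0.20) and with quantile normalisation (0.0585 and 0.27), which also reversed Col14a1 (0.16), and Col11a2 reversed with the mean of all kept probes (0.52). At 40 weeks against 4 weeks, 15 were called as reported, 13 to 17 with 1 sample left out. There Col17a1 (0.29), Col23a1 (0.60), Col15a1 (0.33), Col19a1 (0.19) and Col14a1 (0.33) reversed at 1 spread and Col23a1 (0.27) with quantile normalisation. These 2 settings remove the smaller spread of the 40-week columns by construction; for the others the cause was not tested. Col9a2, Col7a1 and Col24a1 kept their calls in all 23 alternatives of both 40-week comparisons, though some of these could not move their changes. Each has a single kept probe, so the mean of probes gave the same change. No collagen value was exactly 0, so treating such values as missing did too. Leaving out a sample of the group not compared also left the change the same. Between samples sharing a replicate number, correlations of their deviations ran from -0.48 to 0.32. With 1 pair of samples for each number and 2 groups, these cannot settle whether the numbers pair samples, and the labels do not say. With a replicate block, 0, 16 and 15 collagens were called at 4 weeks, at 40 weeks against control and at 40 weeks against 4 weeks. Members near background (Col28a1, Col4a3, Col9a1, Col9a3) are limited by signal at 4 weeks. Col24a1, above background on 3 arrays of each group, is limited by signal in controls as well.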

Other observations

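Collagen genes outside the naming rule include Col6a5, which the array's annotation lists under an older name. Its log2 change from control to 40 weeks was -2.20 in the deposited table. No value with columns scaled to the same spread is given for Col6a5, so the size of its change is uncertain. As deposited, Col14a1 (-2.23) and Col15a1 (-2.20) had changes of similar size. With scaled columns these lay at -0.06 and -0.45, and neither was called. The part of the smaller spread of the 40-week columns in the Col6a5 value was not tested.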
